A study of Mus musculus with 6 samples.

Results

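Receptor subunits for the brain's fast and metabotropic amino acid transmitters were described in mouse brain tissue from around a blood clot, with and without TEPP-46. The members are the known genes whose symbol names a subunit of an AMPA, NMDA, kainate, delta or metabotropic glutamate receptor, a GABA-A or GABA-B receptor or a glycine receptor, and whose counts summed to at least 60 over the 6 libraries. Of 24459 genes in the gene table, 52 had such a symbol and 39 reached the minimum. Among them are 4 AMPA, 5 NMDA, 5 kainate, 7 metabotropic glutamate, 12 GABA-A, 2 GABA-B and 3 glycine receptor genes. Gabrq, with a summed count of 54, lay just outside the minimum. The other genes left out were Grin2d, Grin3b, Grid1, Gabre, Gabrr1, Gabrr2, Gabrr3, Glra1, Glra4, and Grm6, Gabra6 and Gabrp, whose count was 0 in every library. A count of 0 allows a level of up to 0.498 to 0.567 CPM, depending on the library, where CPM is the count scaled to a common library total and the limit covers counting error only.

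Glutamate opens AMPA, NMDA and kainate receptors, cation channels built from several subunits, and so drives most fast excitation in the brain, while GABA-A and glycine receptors are chloride channels that carry fast inhibition. Metabotropic glutamate receptors and GABA-B receptors act through G proteins and tune excitability and transmitter release. Excess glutamate after a haemorrhage can overactivate calcium-permeable receptors and injure neurons, and the subunit make-up of a receptor sets its calcium permeability, its kinetics and its place at the synapse.

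Perihematomal tissue was taken on day 5 of an intracerebral haemorrhage, a bleed into the brain, from mice labelled WT and dosed over consecutive days with TEPP-46 or with vehicle. TEPP-46 switches on pyruvate kinase M2, an enzyme of glycolysis. There were 3 TEPP-46 libraries (T1, T2, T3) and 3 vehicle libraries (C1, C2, C4), all made from total RNA with a nanopore cDNA-PCR kit, which reads long cDNA molecules. The sources used here do not give strain, sex or age. Nor do they say whether each library stands for its own animal, so the spread behind the p-values may be technical.

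The TEPP-46 libraries held 5307005 to 6025064 gene counts and the vehicle libraries 5286426 to 5700598. The receptor members took 0.240% to 0.256% of the counts in TEPP-46 libraries and 0.224% to 0.282% in vehicle libraries. As a check for libraries deposited more than once, libraries of a group were compared with each other: the chi-square per degree of freedom, which takes reads as independent and covers counting error only, was 5.53 to 11.4 in TEPP-46 and 13.3 to 23.7 in vehicle, so that no pair was alike. The tissue held its labelled kind of cells, since all 12 general neuron markers were detected, with a summed level of 6519 to 7951 CPM in TEPP-46 and 6187 to 7314 CPM in vehicle libraries, whereas 5 of 8 hindbrain and spinal markers were at 0. The make-up of the tissue differed between libraries. Vehicle library C4 had 5568 CPM of the 14 oligodendrocyte and myelin markers, against 13668 to 15819 CPM in TEPP-46 libraries and 14058 and 14139 CPM in the other vehicle libraries. Choroid plexus and ependymal markers had 2329 to 4062 CPM in TEPP-46 libraries, against 5037 CPM in C1 but 280.1 and 202 CPM in C2 and C4. Microglia markers had 1087 to 1883 CPM in TEPP-46 libraries, against 1118 CPM in C1, 2756 CPM in C2 and 715 CPM in C4, and striatal projection neuron markers had 2520 to 3130 CPM in TEPP-46 libraries, against 1730 CPM in C1, 3556 CPM in C2 and 2348 CPM in C4. C2 was thus the highest library for both lists. The summed level of the 12 astrocyte markers was 4811 to 5171 CPM in TEPP-46 libraries and 4392 to 4555 CPM in vehicle libraries, without overlap, but only 2 of the 12, Glul and Slc6a11, had no overlap on their own. The part of these differences in the receptor values was not tested.

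The gene counts of all 39 members equalled the sum of their isoform counts, and isoforms of a gene often had nearly equal counts. How the authors counted reads that match several isoforms is not stated in the labels or headers. Levels of genes with many isoforms, and shares of isoforms, therefore depend on that step, and the fold changes between groups share it in every library.

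No receptor subunit was called different between TEPP-46 and vehicle tissue. The comparison asks whether activating pyruvate kinase M2 goes with another receptor make-up around the clot. Of the 39 members, 38 passed the filter on low counts. With edgeR and Benjamini-Hochberg adjustment over 14441 genes, 0 of the 38 passed an adjusted p of 0.05, nor did any other gene (0%), the smallest adjusted p being 0.380. Without adjustment, 5.93% of all genes had a p under 0.05. Of the members, Glrb and Grik5 had one; these 2 were lower in TEPP-46, where 4.05% of all genes were, and 0 members were higher, where 1.88% of all genes were. DESeq2 called 0 of the members, against 0.588% of the genes it tested, and had the same 2 members at an unadjusted p under 0.05. In the authors' deposited table all 39 members are marked normal, that is, not regulated.

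The fitted differences of most members were small. The log2 fold change, TEPP-46 over vehicle, was above 0 in 23 members and below 0 in 15, while 51.1% of all genes were above 0. Its median was 0.04 over the members and 0.01 over all genes, and it was smaller than 0.2 in size in 30 members. In 31 members the 95% interval of the log2 fold change lay between -1 and 1, so that a change of that size in either direction was outside the interval. The groups did not overlap in CPM for 2 members, Glrb and Grik5, both lower in TEPP-46, where 5.76% of all genes were lower without overlap, and for 0 members higher, where 5.67% of all genes were. In bulk tissue, fewer cells that express a gene and less RNA per cell cannot be told apart.

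**Figure D1:**
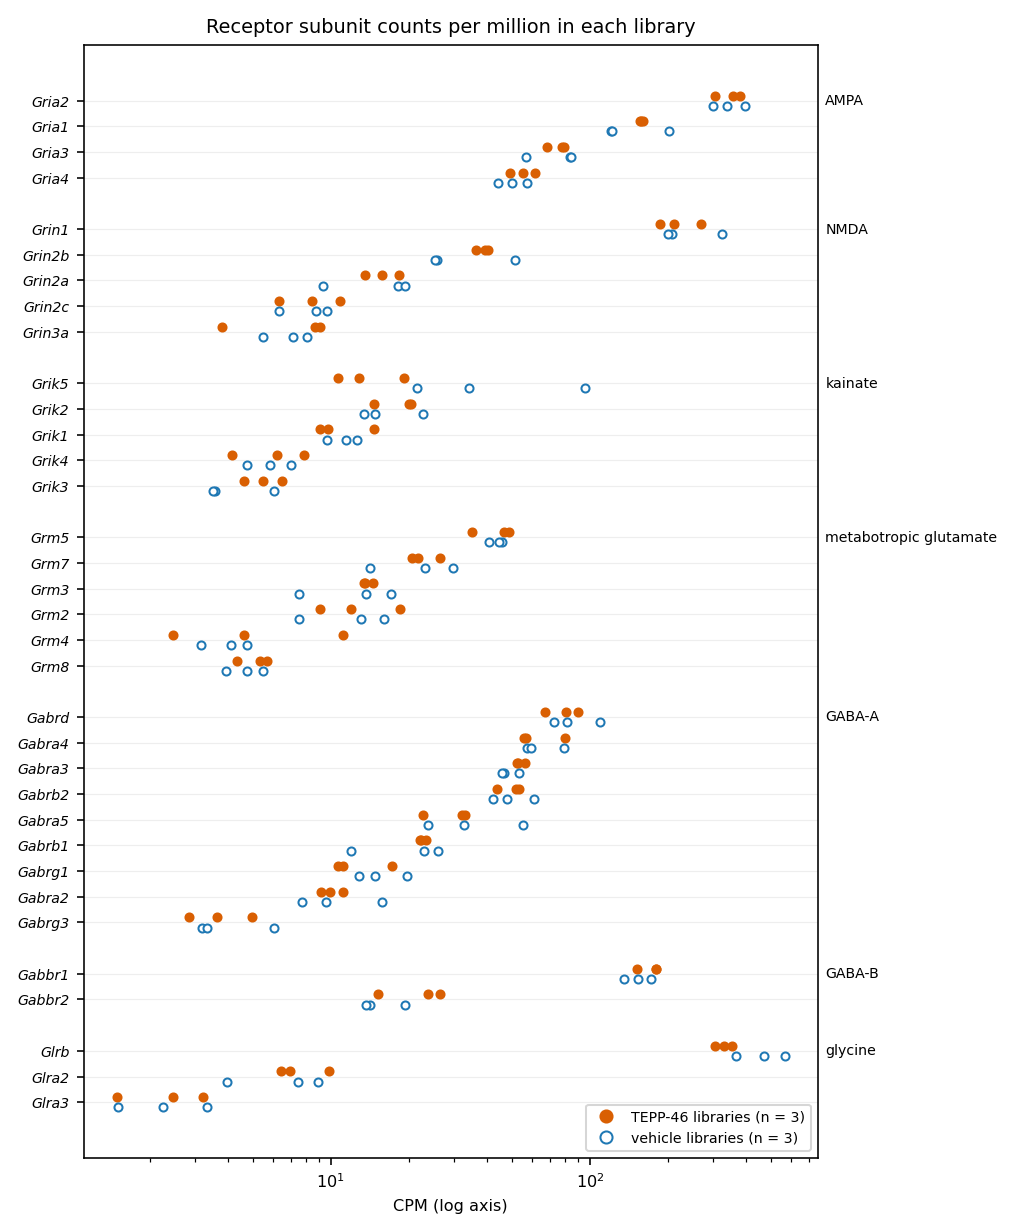
CPM (log axis) of 34 of the receptor subunit genes by receptor class, with filled points for the 3 TEPP-46 libraries above open points for the 3 vehicle libraries. The points of both groups overlap for all genes shown but Glrb, at 305 to 352 CPM in TEPP-46 and 365 to 564 CPM in vehicle, and Grik5, at 10.6 to 19.2 CPM in TEPP-46 and 21.6 to 95.5 CPM in vehicle.

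**Figure D2:**
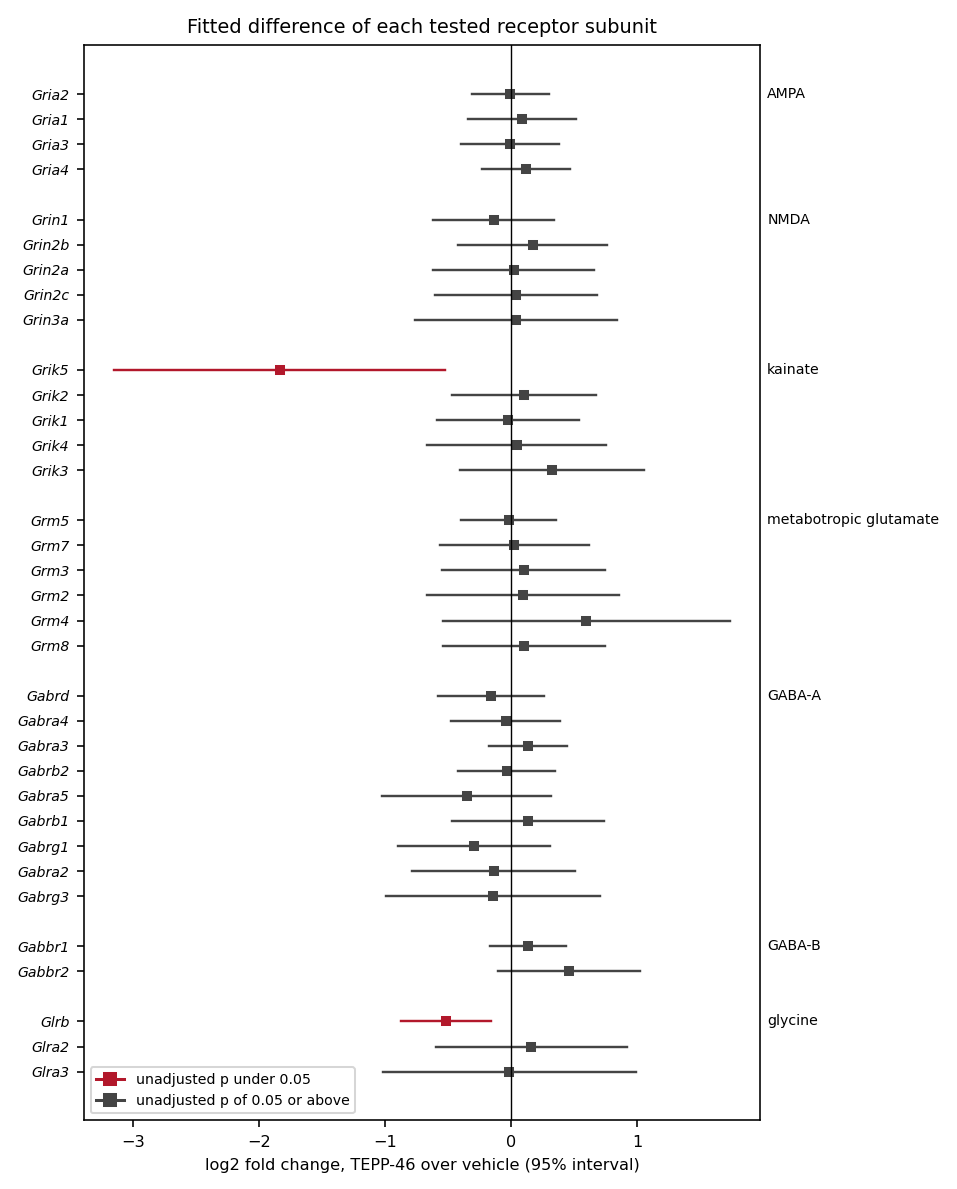
Log2 fold change, TEPP-46 over vehicle, of 34 of the tested members with its 95% interval from edgeR's quasi-likelihood fit. Red marks an unadjusted p under 0.05, which only Grik5 (log2 fold change -1.84) and Glrb (-0.52) had; neither passed after adjustment over 14441 genes.

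Among the AMPA receptor subunits, which form the channels of most fast excitatory synapses, none differed beyond the spread between libraries. Gria2, whose edited subunit makes the channel nearly impermeable to calcium, had 381, 305 and 356 CPM in TEPP-46 libraries and 398, 299 and 339.5 CPM in vehicle libraries. The groups overlapped throughout, with a log2 fold change of -0.00 (SE 0.14, 95% interval -0.31 to 0.30, edgeR adjusted p = 0.998). Gria1, which carries much of the activity-dependent supply of receptors to synapses, had 157, 158 and 160.0 CPM in TEPP-46 libraries and 201, 121 and 121 CPM in vehicle libraries. The TEPP-46 values of Gria1 thus lay between the vehicle values, with C1 above them and C2 and C4 below (log2 fold change 0.09, SE 0.19, edgeR adjusted p = 0.997). Without C1 the log2 fold change of Gria1 was 0.37 (edgeR unadjusted p = 0.0164, adjusted p = 0.649). Gria3 averaged 75.2 ± 6.2 CPM in TEPP-46 and 74.9 ± 15.8 CPM in vehicle, and Gria4 averaged 55.4 ± 6.16 CPM in TEPP-46 and 50.4 ± 6.47 CPM in vehicle (SD, n = 3 each). The share of Gria2 in all AMPA subunit counts, an RNA-level measure of how much of the calcium-limiting subunit is supplied, was 57.1%, 51.6% and 54.8% in TEPP-46 libraries and 54.3%, 57.4% and 56.4% in vehicle libraries. These shares overlapped between the groups.

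Each AMPA subunit gene carries a pair of mutually exclusive exons, flip and flop, which encode part of the ligand-binding domain and set how fast the channel desensitizes. The annotation (GENCODE vM21, build GRCm38) held both exons for all 4 genes, each 115 bases long. The exons of Gria2 and of Gria4 are shown because Gria2 had the highest CPM of the AMPA subunits and Gria4 the one whose flip share did not overlap between groups; capitals mark the bases that differ between flip and flop of the same gene. They lie on the minus strand, Gria2 flip at chr3:80690404-80690518, Gria2 flop at chr3:80691320-80691434, Gria4 flip at chr9:4427030-4427144 and Gria4 flop at chr9:4432773-4432887.
Gria2 flip: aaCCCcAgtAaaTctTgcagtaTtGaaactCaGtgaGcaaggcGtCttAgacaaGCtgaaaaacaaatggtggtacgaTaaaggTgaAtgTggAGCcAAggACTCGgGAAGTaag
Gria2 flop: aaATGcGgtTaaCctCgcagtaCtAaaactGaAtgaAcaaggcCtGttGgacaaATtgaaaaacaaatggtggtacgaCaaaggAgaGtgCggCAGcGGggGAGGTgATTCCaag
Gria4 flip: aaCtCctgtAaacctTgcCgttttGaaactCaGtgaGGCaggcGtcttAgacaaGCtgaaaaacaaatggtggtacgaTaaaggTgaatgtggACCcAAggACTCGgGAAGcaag
Gria4 flop: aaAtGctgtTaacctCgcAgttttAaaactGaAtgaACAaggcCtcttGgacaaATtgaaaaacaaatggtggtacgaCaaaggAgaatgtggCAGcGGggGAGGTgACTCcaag
The exons of Gria2 differ at 36 bases and those of Gria4 at 31. The same comparison gave 36 differing bases for Gria1 and 32 for Gria3.

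Flip exons took a different share in each AMPA subunit gene. Of the isoform counts that hold just one exon of the pair, the flip exon took 65.7%, 66.4% and 68.1% of Gria1 in TEPP-46 libraries and 67.2%, 67.7% and 65.0% in vehicle libraries. For Gria2 it took 42.4%, 42.2% and 43.1% in TEPP-46 libraries and 45.2%, 43.8% and 40.8% in vehicle libraries. Flip was thus the larger part of Gria1 and the smaller part of Gria2 in every library, with overlapping groups in both genes. Gria3 was mostly flip, at 81.8%, 85.2% and 84.5% in TEPP-46 libraries and 84.1%, 91.1% and 90.7% in vehicle libraries. Gria4 was mostly flop, with a flip share of 28.2%, 28.7% and 28.0% in TEPP-46 libraries and 33.0%, 32.1% and 31.6% in vehicle libraries. All 3 TEPP-46 values of Gria4 were below all 3 vehicle values, at a mean of 28.3 ± 0.354% (SD) in TEPP-46 libraries and 32.3 ± 0.735% (SD) in vehicle libraries, with n = 3 each, and each share rested on 112 to 181 counts. The test of isoform usage did not call Gria4 (edgeR diffSpliceDGE, adjusted p = 1.00). Among the 11 splice variant shares compared here, only the flip share of Gria4 did not overlap between the groups. Of the shares of all isoforms in their gene counts, 5.80% were lower and 6.16% were higher in TEPP-46 without overlap. The shares used all counts of Gria1 but 53.5%, 56.7% and 44.9% of those of Gria2, Gria3 and Gria4, because new isoforms, truncated ones and ones annotated with both exons were left out.

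NMDA receptor subunits, which form calcium-permeable channels gated by glutamate together with glycine or serine, showed no difference past the test. Grin1, the subunit that every NMDA receptor needs, had 212, 269 and 187 CPM in TEPP-46 libraries and 207, 199 and 323 CPM in vehicle libraries, with C4 as the highest library. Its log2 fold change was -0.14 (SE 0.21, edgeR adjusted p = 0.993), and 0.12 without C4. Grin2b, a glutamate-binding subunit that predominates early in life and stays abundant in the forebrain, had 39.5, 36.5 and 40.5 CPM in TEPP-46 libraries and 51.5, 25.8 and 25.3 CPM in vehicle libraries. As for Gria1, the 3 TEPP-46 values lay between C1 and the other vehicle libraries; the log2 fold change was 0.17 (SE 0.26, edgeR adjusted p = 0.993). For Grin2b it was 0.59 without C1 (edgeR unadjusted p = 0.00846, adjusted p = 0.649), 0.012 without C2 and 0.00098 without C4. Grin2a, the counterpart that rises with maturation, averaged 15.9 ± 2.35 CPM in TEPP-46 and 15.6 ± 5.48 CPM in vehicle. The ratio of Grin2b to Grin2a counts was 2.16, 2.30 and 2.99 in TEPP-46 libraries and 2.84, 2.77 and 1.31 in vehicle libraries, so that the groups overlapped and C4 was the lowest. Grin2c, the subunit of mature cerebellum, thalamus and glia, averaged 8.55 ± 2.27 CPM in TEPP-46 and 8.25 ± 1.73 CPM in vehicle, and Grin3a, which lowers calcium flow, averaged 7.19 ± 2.93 CPM in TEPP-46 and 6.89 ± 1.31 CPM in vehicle (SD, n = 3 each).

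Grin1 is spliced at an N-terminal cassette, N1, and at the C-terminal cassettes C1 and C2, which set proton sensitivity and the protein's contacts inside the cell. The exons of N1 (chr2:25311343-25311405, minus strand, 63 bases) and C1 (chr2:25294438-25294548, minus strand, 111 bases) are shown because their shares are given next.
Grin1 N1: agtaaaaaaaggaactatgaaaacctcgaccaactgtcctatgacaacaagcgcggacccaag
Grin1 C1: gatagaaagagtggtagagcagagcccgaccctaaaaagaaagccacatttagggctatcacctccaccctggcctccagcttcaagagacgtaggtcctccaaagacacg
Isoforms with N1 took 46.3%, 46.3% and 45.1% of the counts of the 8 full-length Grin1 isoforms in TEPP-46 libraries and 45.3%, 45.6% and 47.5% in vehicle libraries. Isoforms with C1 took 51.0%, 50.5% and 52.1% in TEPP-46 libraries and 51.8%, 51.6% and 52.8% in vehicle libraries. Both shares were nearly level, with N1 between 45.1% and 47.5% and C1 between 50.5% and 52.8% over all 6 libraries. The C2 cassette, which lies in the longer form of the last exon, took 35.5%, 37.4% and 34.3% in TEPP-46 libraries and 39.0%, 35.6% and 43.7% in vehicle libraries, with C4 as the highest. For reads that do not reach a cassette these shares depend on the counting of isoforms, and its part in them was not tested. Grin1 also shares annotated exonic bases with Grin1os on the opposite strand, and without strand their reads cannot be told apart there.

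Kainate receptor subunits gave the member with the lowest log2 fold change, Grik5. Grik5 (ENSMUSG00000003378, chr7:25009849-25072346, minus strand of GRCm38) encodes a high-affinity subunit that forms channels only together with the low-affinity subunits of Grik1, Grik2 and Grik3. Its raw counts were 64, 108 and 68 in TEPP-46 libraries and 182, 123 and 505 in vehicle libraries, which correspond to 10.6, 19.2 and 12.8 CPM in TEPP-46 and 34.1, 21.6 and 95.5 CPM in vehicle. All TEPP-46 libraries were below all vehicle libraries, but T2 and C2 lay close together and C4 stood far above the rest. The means of Grik5 were 14.2 ± 4.46 CPM in TEPP-46 and 50.4 ± 39.6 CPM in vehicle (SD, n = 3 each). The fit gave a log2 fold change of -1.84 (SE 0.56, 95% interval -3.15 to -0.52, edgeR unadjusted p = 0.0127, adjusted p = 0.657). It was the sole member whose vehicle libraries differed more than 3-fold among themselves. Without C4 the log2 fold change was -0.98 (edgeR unadjusted p = 0.0107, adjusted p = 1.00), and the edgeR unadjusted p was 0.0629 without T1 and 0.0577 without T3 (adjusted p 1.00 and 0.915). The log2 fold change of Grik5 furthest from 0 was that without C2, at -2.20 (edgeR unadjusted p = 0.000478, adjusted p = 0.0792). The authors' deposited table gives Grik5 a log2 fold change of -0.56 and a p of 0.00886; its header does not define the direction of that fold change. In the DESeq2 fit of TEPP-46 over vehicle, the log2 fold change was -1.85 for Grik5, -0.53 for Glrb and 0.45 for Gabbr2. The deposited values, with -0.46 for Glrb and 0.32 for Gabbr2, had the same signs.

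None of the other kainate subunits had an unadjusted p under 0.05. Grik2, a low-affinity subunit that forms channels by itself, had 20.4, 20.1 and 14.7 CPM in TEPP-46 libraries and 14.8, 22.6 and 13.4 CPM in vehicle libraries, with overlapping groups (log2 fold change 0.10, SE 0.25, edgeR adjusted p = 0.997). Grik1 averaged 11.2 ± 3.06 CPM in TEPP-46 and 11.2 ± 1.52 CPM in vehicle. Grik4, the other high-affinity subunit, averaged 6.1 ± 1.89 CPM in TEPP-46 and 5.85 ± 1.13 CPM in vehicle, and Grik3 averaged 5.52 ± 0.926 CPM in TEPP-46 and 4.37 ± 1.46 CPM in vehicle (SD, n = 3 each). Grik5 supplied most of the spread in the summed level of the class, which was 51.5, 59.2 and 55.6 CPM in TEPP-46 libraries and 69.7, 62.1 and 135 CPM in vehicle libraries.

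Metabotropic glutamate receptor genes showed no difference past the test. Grm5, a postsynaptic receptor of neurons and also found in astrocytes, which couples to phospholipase C, had the highest CPM of them, at 35.2, 48.9 and 46.5 CPM in TEPP-46 libraries and 45.9, 44.6 and 40.7 CPM in vehicle libraries (log2 fold change -0.02, SE 0.17, edgeR adjusted p = 0.998). Grm7, a presynaptic receptor of low glutamate affinity, had 20.6, 26.5 and 21.7 CPM in TEPP-46 libraries and 29.6, 23.2 and 14.2 CPM in vehicle libraries (log2 fold change 0.03, SE 0.26, edgeR adjusted p = 0.998). Neither gene separated the groups. Grm4, a presynaptic receptor, had 11.1, 4.62 and 2.45 CPM in TEPP-46 libraries and 4.12, 3.16 and 4.73 CPM in vehicle libraries. For Grm4, T1 was the highest library and T3 the lowest, and the log2 fold change was 0.60 (SE 0.50, edgeR adjusted p = 0.974). The log2 fold change of Grm4 was -0.18 without T1 and 0.97 without T3 (edgeR unadjusted p = 0.0498, adjusted p = 0.901). Grm3, an inhibitory receptor prominent in astrocytes, averaged 13.8 ± 0.672 CPM in TEPP-46 and 12.8 ± 4.79 CPM in vehicle, while Grm2 averaged 13.1 ± 4.81 CPM in TEPP-46 and 12.2 ± 4.34 CPM in vehicle and Grm8 averaged 5.11 ± 0.70 CPM in TEPP-46 and 4.72 ± 0.777 CPM in vehicle (SD, n = 3 each).

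Grm5 and Grm7 are spliced in the part that encodes the C-terminal region of the receptor. For Grm5, the isoform with the exon of the b form took 6.28%, 8.24% and 9.02% of counts in TEPP-46 libraries and 9.58%, 8.13% and 7.69% in vehicle libraries, so that the a form made up most of the counts in every library. For Grm7, the isoform with the exon of the b form took 24%, 25.2% and 33.8% in TEPP-46 libraries and 32.2%, 23.4% and 15.6% in vehicle libraries, on 64 to 119 counts each. The groups overlapped for both shares.

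GABA-A receptor genes were level as a class, with a summed 909.5, 854 and 785 CPM in TEPP-46 libraries and 895, 770.3 and 849 CPM in vehicle libraries. The class sums of both groups overlapped. Gabrb2, a beta subunit, which holds the GABA-binding face together with an alpha subunit, did not separate the groups either. Gabrb2 averaged 49.6 ± 5.18 CPM in TEPP-46 and 50.4 ± 9.37 CPM in vehicle (SD, n = 3 each).

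Subunits of extrasynaptic and regional GABA-A receptors overlapped between the groups too. Gabrd, the delta subunit of extrasynaptic receptors that carry tonic inhibition, had 90.3, 80.9 and 67.3 CPM in TEPP-46 libraries and 72.5, 81.4 and 109.7 CPM in vehicle libraries, and Gabra4, a common partner of it, averaged 64.0 ± 13.7 CPM in TEPP-46 and 65.4 ± 12.3 CPM in vehicle (SD, n = 3 each). Gabra5, prominent in hippocampus and in tonic inhibition, had 33.0, 32.0 and 22.6 CPM in TEPP-46 libraries and 55.2, 23.7 and 32.5 CPM in vehicle libraries, with C1 as the highest. The share of Gabra5 in the counts of all alpha subunits was 9.52%, 10.4% and 7.87% in TEPP-46 libraries and 15.8%, 8.60% and 10.5% in vehicle libraries. These shares overlapped between the groups. Of the other members, Gabra2 and Gabra3, Gabrb1, and Gabrg1 and Gabrg3 averaged between 3.82 CPM (Gabrg3) and 53.9 CPM (Gabra3) in TEPP-46 and between 4.19 CPM (Gabrg3) and 48.5 CPM (Gabra3) in vehicle, and none had an unadjusted p under 0.05. Gabra4 and Gabrb1 share annotated exonic bases on opposite strands, so their reads cannot be told apart there unless the counting used strand, which the labels and headers do not state.

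GABA-B receptors are dimers of the products of Gabbr1, which binds GABA, and Gabbr2, which couples to the G protein. Gabbr1 had 179.9, 179.8 and 153 CPM in TEPP-46 libraries and 153, 136 and 173 CPM in vehicle libraries (log2 fold change 0.14, SE 0.13, edgeR adjusted p = 0.984). Gabbr2 had 26.4, 23.7 and 15.3 CPM in TEPP-46 libraries and 19.3, 14.2 and 13.6 CPM in vehicle libraries (log2 fold change 0.46, SE 0.25, 95% interval -0.10 to 1.02, edgeR adjusted p = 0.901). T1 and T2 were above all vehicle libraries for Gabbr2, while T3 lay among them; without T3 the log2 fold change was 0.66 (edgeR unadjusted p = 0.0201, adjusted p = 0.801). The start of the b form of Gabbr1, which lacks the sushi domains of the a form, took 40.2%, 40.4% and 42.1% of full-length counts in TEPP-46 libraries and 41.0%, 41.4% and 39.1% in vehicle libraries. Short isoforms took 29.0%, 24.1% and 27.3% of short plus full-length counts in TEPP-46 libraries and 30.4%, 25.7% and 46.0% in vehicle libraries, where C4 stood apart.

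Glycine receptor genes held the member with the highest CPM per kilobase, Glrb, and it was the other member at an unadjusted p under 0.05. Glrb (ENSMUSG00000028020, chr3:80843599-80913660, minus strand of GRCm38) encodes the beta subunit, which binds gephyrin, the scaffold of inhibitory synapses, and needs an alpha subunit to form a channel. Its raw counts were 1835, 1844 and 1869 in TEPP-46 libraries and 2504, 2083 and 2982 in vehicle libraries, which correspond to 305, 328 and 352 CPM in TEPP-46 and 469, 365 and 564 CPM in vehicle. All TEPP-46 libraries were below all vehicle libraries, with T3 and C2 next to each other. The means of Glrb were 328 ± 23.8 CPM in TEPP-46 and 466 ± 99.4 CPM in vehicle (SD, n = 3 each). The fit gave a log2 fold change of -0.52 (SE 0.16, 95% interval -0.87 to -0.16, edgeR unadjusted p = 0.00932, adjusted p = 0.630). Without C4 the log2 fold change was -0.36 (edgeR unadjusted p = 0.0271, adjusted p = 1.00), and leaving out each library in turn gave -0.66 (without C2, edgeR unadjusted p = 0.00073, adjusted p = 0.0979) to -0.36. The authors' deposited table gives Glrb a log2 fold change of -0.46 and a p of 0.00432.

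The alpha subunits of glycine receptors were scarce beside Glrb. Glra2, an alpha subunit prominent in development, had 6.97, 6.40 and 9.80 CPM in TEPP-46 libraries and 7.49, 8.95 and 3.97 CPM in vehicle libraries (log2 fold change 0.16, SE 0.34, edgeR adjusted p = 0.997). Glra3 averaged 2.38 ± 0.856 CPM in TEPP-46 and 2.36 ± 0.915 CPM in vehicle (SD, n = 3 each). Neither alpha subunit separated the groups. The count of Glrb over that of Glra2 and Glra3 together was 36.0, 34.1 and 28.8 in TEPP-46 libraries and 48.2, 29.8 and 103 in vehicle libraries, and Glra1, the alpha subunit of adult spinal cord and brainstem, had a summed count of 21 over all libraries.

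**Figure D3:**
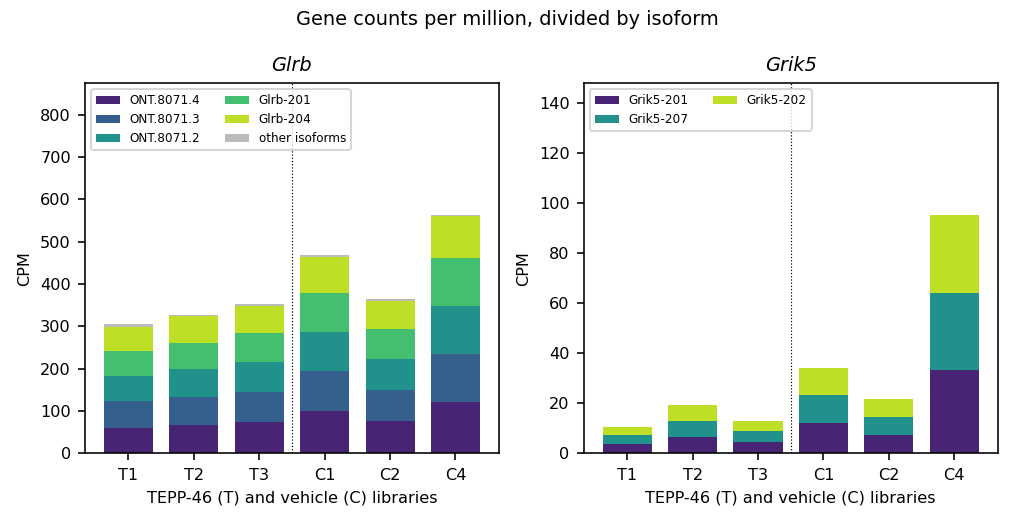
CPM of Glrb (left) and Grik5 (right) in the 3 TEPP-46 libraries (T, left of the dotted line) and the 3 vehicle libraries (C), each bar divided by isoform. All TEPP-46 bars are lower than all vehicle bars in both genes, C4 is the highest library at 564 CPM for Glrb and 95.5 CPM for Grik5, and the isoforms of a gene take nearly equal parts of every bar.

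The main isoforms of Glrb and Grik5 were lower in TEPP-46, as their gene totals were, but none was called. Of 33854 isoforms tested with edgeR, 0 were called, and of 108 isoforms of receptor members 8 were lower in TEPP-46 at an unadjusted p under 0.05, where 3.90% of all isoforms were, and 0 were higher, where 1.88% were. The 8 were 5 of Glrb, with log2 fold changes of -0.59 to -0.48 (edgeR adjusted p 0.532 to 0.641), and 3 of Grik5, with -1.90 to -1.76 (edgeR adjusted p 0.743 to 0.767). The 5 Glrb isoforms, 3 of them new, each held 18.1% to 20.8% of its counts, and the 3 Grik5 isoforms 32.2% to 35.1%, so these isoforms are not independent evidence of each other. Isoform usage, the proportions apart from the total, was tested in 28 members and called in 0, against 0.0131% of 7639 genes. At an unadjusted Simes p under 0.05 there was 1 member, Glrb (edgeR diffSpliceDGE, adjusted p = 1.00), against 0.641% of all genes; its usage value came from the rare isoform Glrb-206, with 21, 14 and 9 counts in TEPP-46 libraries and 8, 13 and 5 counts in vehicle libraries.

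Shares of isoforms within a gene were also compared over all isoforms. Of 98 isoforms in 28 members with a summed count of at least 60, the share of the gene count was lower in TEPP-46 without overlap in 9 (9.18%), where 5.80% of 27305 isoforms were, and higher without overlap in 6 (6.12%), where 6.16% were. The lower ones included Gabra5-201, Gria2-202, Gria4-202, Grik1-201, Grik5-202, Grin3a-201 and new isoforms of Grik2 and Glrb. The higher ones included Gabra5-202, Glrb-204, Gria4-201, Grik5-207 and Grin3a-202. Gabra5, Glrb, Gria4, Grik5 and Grin3a thus had isoforms on both sides. Shares within a gene add up to its whole count, so these lower and higher shares are not independent. Gria2-202 and Gria4-202 are flip forms and Gria4-201 is a flop form. For Gria2 the groups did overlap when flip was taken as a share of flip plus flop only. New isoforms, without a structure that could be compared here, held 28.7% of the members' counts and occurred in 14 members.

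**Figure D4:**
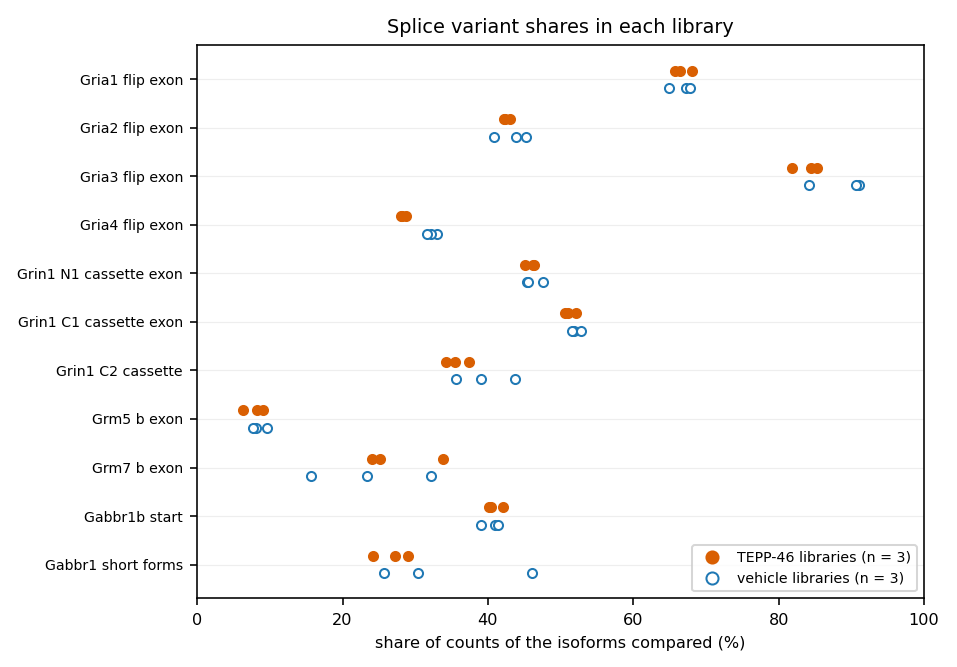
Share (%) of 11 splice variants in the counts of the isoforms compared, with filled points for TEPP-46 libraries above open points for vehicle libraries. The groups overlap for all variants but the flip exon of Gria4, at 28.0% to 28.7% in TEPP-46 and 31.6% to 33.0% in vehicle. Of the shares of all isoforms in their gene counts, 5.80% were lower and 6.16% were higher in TEPP-46 without overlap.

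Ranked by CPM per kilobase of the most abundant annotated isoform, Glrb was the highest member at 108 CPM per kilobase in TEPP-46 and 154 CPM per kilobase in vehicle. Whether counts of long cDNA reads grow with transcript length was not tested, so both scales are given. Among the other members, Grin1 had 57.4 CPM per kilobase in TEPP-46 against 62.6 in vehicle, Gabrd had 41.4 in TEPP-46 against 45.7 in vehicle, Gabbr1 had 42.3 in TEPP-46 against 38.1 in vehicle, and Gria2 had 33.5 in TEPP-46 against 33.3 in vehicle. By CPM without length, Glrb averaged 328 CPM in TEPP-46 and 466 CPM in vehicle, and Gria2 averaged 347 CPM in TEPP-46 and 345 CPM in vehicle, so that Gria2 was above Glrb in TEPP-46. The order also depends on how isoforms are counted: by the CPM of the single most abundant isoform, Gria2 was first, at 106 CPM over all libraries, while Glrb had 82.9 CPM. Gria2 also has a long annotated transcript of 10371 bases, against 3029 bases for Glrb, so that its level per kilobase is low for its count.

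Several members varied between libraries. The highest CPM was more than 2 times the lowest over the 6 libraries in 16 members. Gabrb1 had 11.9 CPM in C4, against 22.0 to 23.4 CPM in TEPP-46 libraries and 23.0 and 26.0 CPM in the other vehicle libraries. Gabrb1, Grm3, Grm7, Glra2, Grin2b and Grik2 were among the 9 members that were lowest in C4. Markers of oligodendrocyte precursors had 146 CPM in C4, against 259.7 to 343 CPM in TEPP-46 libraries and 275 and 332 CPM in the other vehicle libraries. Within that list Bcas1 had 53.2 CPM in C4, against 125 CPM in C1 and 168 CPM in C2, while Olig2 was highest in C4, at 4.35 CPM. C4 was also the lowest library for the summed thalamic, hypothalamic, myelin, microglia, choroid plexus and red blood cell markers. The part of tissue make-up in these values was not tested.

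Grik5 and Glrb were both highest in C4, the library with the lowest myelin markers and few choroid plexus markers. C4 was highest for cortical excitatory neuron, GABAergic interneuron and cerebellar markers, and T1 for general neuron markers. Cortical excitatory neuron markers had 1006 CPM in C4, against 670 to 893 CPM in TEPP-46 libraries, 969 CPM in C1 and 622 in C2. GABAergic interneuron markers had 1636 CPM in C4, against 1161 to 1457 CPM in TEPP-46 libraries, 1246 CPM in C1 and 1090 CPM in C2. The part of neuron make-up was not tested. C4 also differed by base composition: in the 2592 genes with the highest GC content, the top of 5 groups, its log2 level exceeded the mean of C1 and C2 by a median of 0.13, while in the other 4 groups of genes by GC content the median was between -0.04 and -0.01. Grik5 has a GC content of 62.3%, at percentile 98.5 of 12958 genes, and Glrb one of 40.8%, at percentile 8.06. Grik5 had 95.5 CPM in C4, 34.1 CPM in C1 and 21.6 CPM in C2. The members nearest to it in GC content were Grin2c, at percentile 98.2, and Grm4, at percentile 97.8. Grin2c had 9.65 CPM in C4, 8.80 CPM in C1 and 6.32 CPM in C2, and Grm4 had 4.73, 4.12 and 3.16 CPM. The part of base composition in the level of Grik5 in C4 was not tested. Levels also varied with transcript length, and not in C4 alone. The Spearman correlation of length with each gene's deviation from its mean over the 6 libraries was -0.16 in C4 and -0.15 in C2. It was 0.14 in C1, 0.16 in T1, 0.16 in T2 and -0.06 in T3. The part of length in the receptor values was not tested. Over all members C4 was the highest library for 8 and the lowest for 9, while T1 was the highest for 11 and C2 the lowest for 12.

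**Figure D5:**
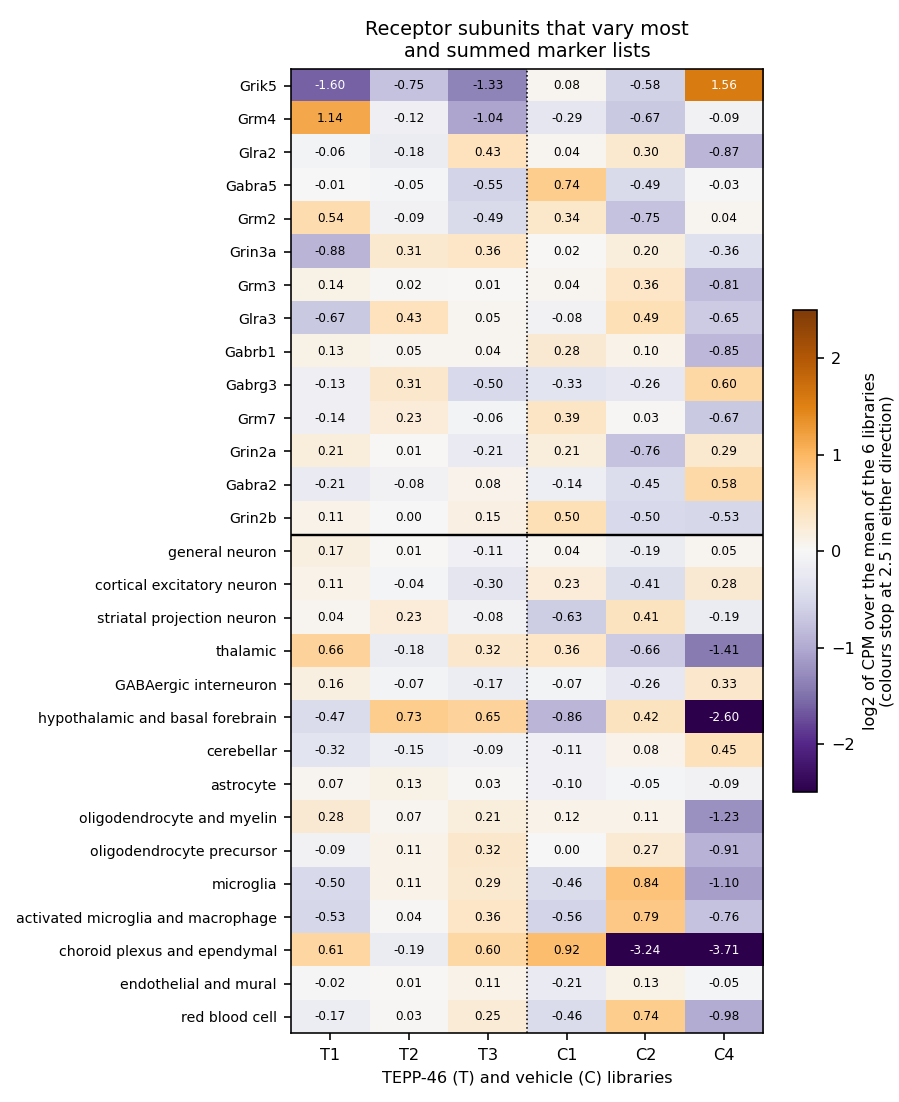
Log2 of CPM over the mean of the 6 libraries for 14 of the 16 members that vary most (above the line) and for 15 summed marker lists (below it), with TEPP-46 libraries left of the dotted line and vehicle libraries right of it; purple is low and orange is high. C4 is low in thalamic, myelin, choroid plexus and hypothalamic markers and high in Grik5 (1.56), and T1 is high in Grm4 (1.14) and thalamic markers (0.66). T3 is low in Grm4 (-1.04) but not in thalamic markers (0.32), and C4 has -0.09 for Grm4 and -1.41 for thalamic markers.

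Proteins that assemble and anchor these receptors were read from the same fit. Of the 27 listed auxiliary subunits and assembly factors of AMPA and kainate receptors, 26 were tested. Of these 26 genes, 0 were called, 0 were higher and 6 were lower in TEPP-46 at an unadjusted p under 0.05, where 4.05% of all genes were lower; 8 of the 26 had a log2 fold change above 0, and the median was -0.24, against 0.01 over all genes. The 6 were Cnih2 and Cnih3, cornichon proteins that slow the closing of AMPA receptors, Gsg1l and Cacng7, further auxiliary subunits, Olfm1, a secreted protein found in AMPA receptor complexes, and Porcn, an assembly factor. Cnih2 had 63.1, 86.6 and 62.7 CPM in TEPP-46 libraries and 149.6, 71.9 and 228 CPM in vehicle libraries (log2 fold change -1.09, SE 0.37, edgeR adjusted p = 0.700). Like Grik5, 5 of the 6 were highest in C4, and without C4 the number lower at an unadjusted p under 0.05 was 1. In the same check, added after the data were seen, leaving out C2 gave 9 lower and 1 called, and leaving out C1, T1, T2 and T3 gave 3, 2, 4 and 2 lower; 1 gene of the list was higher without C1, C2 or T1.

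The other lists are read against the 1.88% of all genes that were higher and the 4.05% that were lower in TEPP-46 at an unadjusted p under 0.05. Of 28 excitatory anchoring proteins, Dlg2 and Dlgap2, scaffold proteins of the postsynaptic density, were higher and Dlgap3 was lower at an unadjusted p under 0.05 (log2 fold changes 0.38, 0.54 and -0.46, edgeR adjusted p 0.765, 0.804 and 0.760), with a list median of -0.04. Of 29 proteins that cluster or assemble GABA and glycine receptors, Clptm1, which retains GABA-A receptors in the endoplasmic reticulum, and Rgs7, which shortens GABA-B signals, were lower at an unadjusted p under 0.05, with a median of 0.00. Clptm1 had 17.1, 24.9 and 25.8 CPM in TEPP-46 libraries and 40.5, 35.6 and 46.3 CPM in vehicle libraries, without overlap (log2 fold change -0.87, SE 0.20, edgeR unadjusted p = 0.00192, adjusted p = 0.387). Of 15 signalling partners of metabotropic glutamate receptors, Plcb1, a phospholipase C that Grm5 activates, was lower at an unadjusted p under 0.05 (log2 fold change -0.32, edgeR adjusted p = 0.784), with a median of 0.08. None of the 3 lists held a called gene, and counts this small in lists of this size are not a result about the lists. Leaving out a library gave 0 to 2 anchoring genes higher and 0 to 2 lower, 1 to 3 clustering genes lower and 0 to 2 signalling genes lower.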

How the data were processed

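RNA of perihematomal brain from 3 TEPP-46 and 3 vehicle mouse samples was compared. The authors deposited raw counts per gene and per isoform, per the file headers. DESeq 1.10.1 and GRCm38 are named in the submitters' processing notes, while the file headers name DESeq2; no label or header names the aligner or counter. The authors' deposited table also holds a p-value and a log2 fold change per gene. The column letters T and C give the group, but their numbers cannot be tied to single samples. CPM was computed here from the counts, and 12 further columns, the authors' own CPM, were left out. Genes and isoforms were tested over the whole tables with edgeR 4.0.16 in R 4.3.3 (filterByExpr, TMM, robust quasi-likelihood F test, Benjamini-Hochberg adjustment). Isoform usage was tested with diffSpliceDGE, and genes also with DESeq2 1.42.0. The edgeR fits were also run on simulated counts, with the same dispersion for all genes and no differences in tissue make-up. That run does not cover the differences between these libraries. Splice variants and their exon sequences were read from GENCODE vM21 (GRCm38). Members and lists were chosen with earlier results of these data known. Fully described members were those with an unadjusted p under 0.05 or without overlap, and the 2 most abundant of each class; other values were chosen after they were seen. Results of some members are not reported here, while counts over all members include them. Sums of marker genes were taken per library.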

Additional observations from a re-analysis of the deposited data

How the results depend on the processing

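No receptor member was called under any alternative run for genes: RLE scaling, library totals, DESeq2, other filters on low counts, leaving out each library, and the most abundant isoform of each gene, the last chosen after seeing the data. Over all genes DESeq2 called 88, against 0 with edgeR, and leaving out a library gave 0 to 43 genes, the 43 without C2. The members at an unadjusted p under 0.05 were 1 (without T1) to 5 (without C1), against 2, and Glrb was among them under every gene alternative; Grik5 was not without T1 or T3. Isoforms called were 0 to 178 when a library was left out, the 178 without C2. Member isoforms at an unadjusted p under 0.05 were 5 with annotated isoforms only and 5 (without T1) to 16 (without C1) when a library was left out, against 8. Genes called for isoform usage were 0 with isoforms of a summed count of at least 10, and 0 to 1 when a library was left out, against 1. The cause of these differences was not tested.

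When each library was left out in turn, the log2 fold change took both signs in 27 of the 38 tested members. Gria2 was 0.0081 with library totals, and Grm7 was -0.059 by its most abundant isoform. Leaving out a library gave ranges of -0.11 to 0.42 for Glra2, -0.032 to 0.37 for Gria1, -0.091 to 0.11 for Gria2, -0.038 to 0.38 for Grik2, -0.30 to 0.12 for Grin1, -0.11 to 0.12 for Grm5 and -0.21 to 0.28 for Grm7, as well as -0.18 to 0.97 for Grm4 and 0.00098 to 0.59 for Grin2b. None of these was called in any fit. No paired analysis was possible because the numbers in the column names do not match the numbers of the labelled samples. The 95% interval of the log2 fold change was wide for some members, -1.02 to 0.99 for Glra3 and -0.54 to 1.73 for Grm4. Differences within these intervals remain compatible with these libraries.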
